A study of Drosophila melanogaster with 4 samples.

Results

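The genes described here encode the voltage-gated and leak ion channels of Drosophila melanogaster with their accessory subunits: 36 genes named by symbol, all of which were listed in the deposited tables, of 13997 genes listed in at least 1 library. They comprise 7 sodium channel genes, 5 calcium channel genes, 6 genes of the Shaker family with its partners, 3 of the EAG family, 3 for potassium channels gated by calcium or sodium ions, KCNQ and Ih, 3 of the sodium leak complex, 3 inward rectifiers and 4 tandem-pore (K2P) leak channels. RNA was taken from pooled larval central nervous systems, 70 to 100 per sample, at 96 hours after egg laying, with 2 samples in each group. In the control samples repo-Gal4, a driver active in glia, expressed mRFP, a red fluorescent protein. In the samples labelled reprogrammed the same driver expressed constitutively activated Egfr, a receptor tyrosine kinase, together with constitutively activated PI3K92E, the catalytic subunit of phosphoinositide 3-kinase. Both groups therefore carried the driver, the groups differed in the genes it drove, and each library mixed all cell types of the nervous system.

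Voltage-gated sodium and calcium channels carry the inward currents that start and spread electrical signals in neurons. Voltage-gated potassium channels end those signals, while leak and inward rectifier channels hold the membrane near its resting potential. In the fly nervous system a single gene, para, encodes the main action potential sodium channel, and several potassium channel families were first named from fly mutants such as Shaker and ether a go-go.

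Levels are the FPKM values that the authors deposited, which count sequenced fragments per kilobase of a gene's transcripts, relative to all those mapped. Where a library's table did not list a gene, its level was taken as 0. The 9851 genes that reached 1 FPKM in 2 or more libraries were tested with limma on log2(FPKM + 1), and a gene was called at a Benjamini-Hochberg adjusted p under 0.05. Changes are reprogrammed minus control on that scale, on which changes of low genes come out too small, and each adjusted p is limma's, two-sided, with n = 2 per group. The steps between low FPKM values put 1 FPKM over 1 kilobase at 11.36 to 12.4 reads per library. The p-values measure the spread between pooled samples, which may be technical. The driven genes were higher in the reprogrammed libraries, with Egfr at 8.60 and 11.4 FPKM in control and 58.9 and 49.3 in reprogrammed samples, and Pi3K92E at 8.28 and 17.1 against 287 and 253.

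Most channel genes were lower in the reprogrammed nervous systems, and the inward rectifier genes were the group in which every member was higher. Of the 36 genes, 32 passed the filter, and of these 14 fell, 1 rose and 17 were not called. Over all tested genes, 8.13% were called lower and 4.11% higher, and 3358 of 9851 had an unadjusted p under 0.05 (limma). Of the 17 genes without a call, 13 had a negative and 4 a positive change. The genes that fell were 3.45-fold to 6.88-fold lower by mean FPKM, and the 13 uncalled genes with a negative change were 2.10-fold to 6.16-fold lower, with adjusted p from 0.0531 to 0.162. In all 32 tested genes the libraries of the groups did not overlap, 27 lower and 5 higher, against 40.8% and 22.6% of all tested genes. The median change of the tested channel genes was −1.28, beside −0.25 over all tested genes, and it was −1.25 over all 36 with no filter. Of the 32, 6 reached 1 FPKM in the controls alone, so passing the filter already required a difference for them. They are Ca-alpha1D, the called gene among these 6, and Ca-alpha1T, eag, Elk, na and unc79, which were not called. The other 4 of the 36 stayed under the filter.

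**Figure D1:**
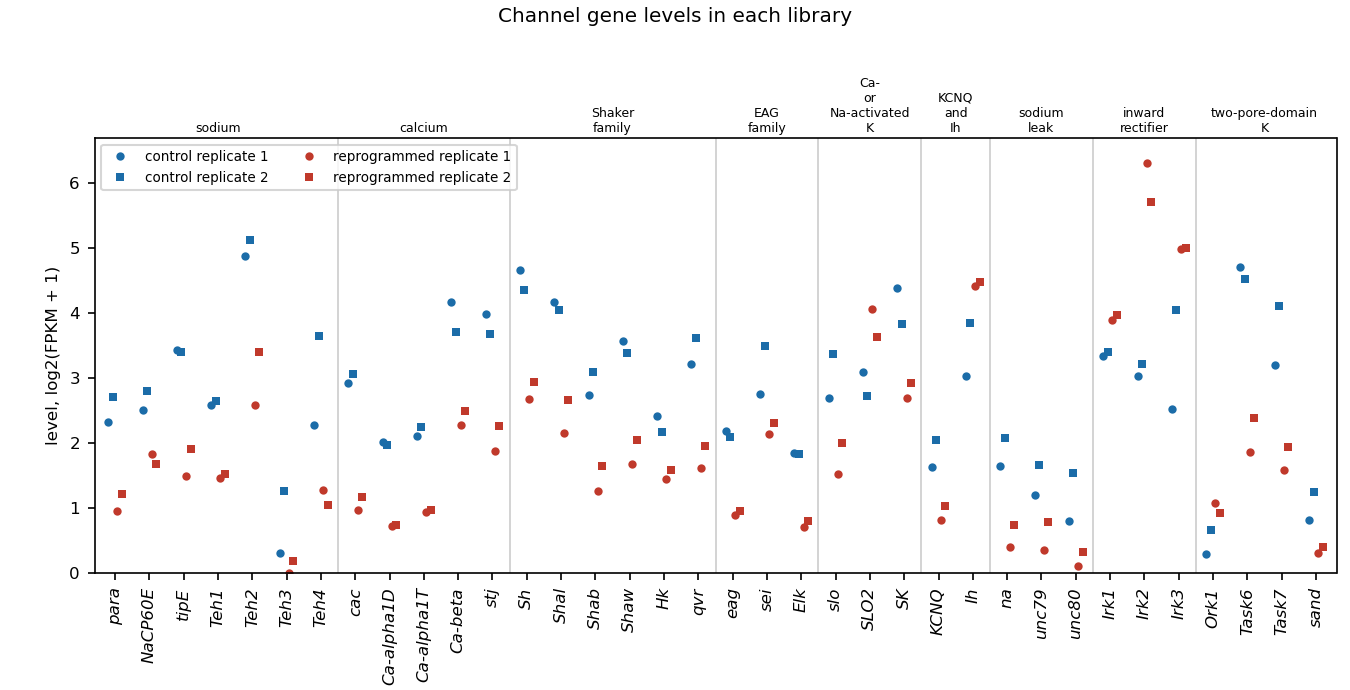
Level of each of the 36 channel genes in every library, as log2(FPKM + 1) on the vertical axis, ordered by role; blue symbols are the 2 control and red symbols the 2 reprogrammed libraries. Red symbols lie below blue ones for 30 genes and above them for 6: SLO2, Ih, Irk1, Irk2, Irk3 and Ork1.

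These calls moved with the processing. With a trend of the change on transcript length removed, 0 of the 32 channel genes were called lower in limma (0.925% of all genes). Lower at an unadjusted p under 0.05 were 9 of the 32, beside 1158 of 9838 genes. Called higher were 3 (2.56% of all genes), and the median change of the channel genes was −0.41. In that fit Task7 changed by −1.88, Task6 by −1.72 and Teh2 by −1.70, beside −1.89, −2.49 and −2.02 with the trend left in. All 14 lower calls were also lost without reprogrammed replicate 1, and 12 of them without reprogrammed replicate 2, fits in which the remaining reprogrammed library was assumed to vary like the control pair. Scaled to a common median FPKM 7 were lower and 3 higher, on a common sum of FPKM 19 and 1, and after quantile normalization 3 and 1, while the median of all genes moved from −0.25 to 0.06, −0.49 and −0.04. Of the 32 changes, 27 were negative under each of these 3 scalings and 24 with the length trend removed.

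The sodium channel genes were lower throughout, and 3 of the 6 tested fell. The channel gene para read 4.02 and 5.56 FPKM in the controls and 0.94 and 1.33 in the reprogrammed libraries. Both reprogrammed values lay under the lower control, a change of −1.43 ± 0.33 (SE; limma adjusted p = 0.0482). The auxiliary subunit gene tipE, whose product raises the current carried by para, read 9.77 and 9.61 FPKM against 1.82 and 2.74. Its controls nearly coincided, and it fell by 1.72 on the log2 scale (SE 0.33, limma adjusted p = 0.0385).

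The tipE homologs encode further auxiliary subunits, and the most abundant of them was Teh2. It read 28.4 and 34.2 FPKM in control and 4.98 and 9.54 in reprogrammed libraries, the highest sodium channel subunit level in every library (−2.02 ± 0.38, limma adjusted p = 0.0384). Teh4 stood at 3.83 and 11.6 FPKM against 1.43 and 1.07. Its control libraries stood far apart, and its change was −1.80 ± 0.52, without a call (limma adjusted p = 0.0707). Teh1 stood at 5.02 and 5.27 FPKM against 1.75 and 1.86 (−1.13, limma adjusted p = 0.0648). NaCP60E, which encodes a sodium-channel-like protein, had the smallest difference of these genes, with 4.70 and 5.94 FPKM against 2.57 and 2.20 (−0.90, limma adjusted p = 0.117). Teh3 stayed under the filter, at 0.23 and 1.40 FPKM in control, missing from the table of reprogrammed replicate 1 and at 0.13 in replicate 2. Per unit of para, tipE held 2.43 and 1.73 in the controls and 1.94 and 2.06 in the reprogrammed libraries, ranges that overlap. The ratio of Teh2 to para also overlapped, at 7.07 and 6.14 against 5.30 and 7.17. That of Teh1 to para did not, at 1.25 and 0.95 in control and 1.86 and 1.40 in reprogrammed libraries. The longest transcript of para, 15578 bases, is longer than that of Teh1 (4539).

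Among the 5 calcium channel genes 4 fell and the other was lower without a call. The presynaptic channel gene cac, whose product admits the calcium that triggers transmitter release, read 6.58 and 7.38 FPKM in control and 0.95 and 1.24 in reprogrammed libraries. It was the steepest of the group, at −1.93 ± 0.32 (limma adjusted p = 0.0340), or 6.37-fold by mean FPKM. The L-type channel gene Ca-alpha1D stood at 3.05 and 2.90 FPKM against 0.64 and 0.66, with a change of −1.27 ± 0.29 (limma adjusted p = 0.0481). It passed the filter through its controls alone and was called in 5 of 12 alternatives. The T-type gene Ca-alpha1T, of low-voltage-activated channels, had a similar pattern at 3.32 and 3.76 FPKM against 0.92 and 0.95. Its adjusted p was 0.0531 (limma). It too passed the filter through its controls alone and was called in 5 of 12 alternatives.

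The accessory calcium channel genes were more abundant than the pore genes in every library. Ca-beta, the cytoplasmic beta subunit, stood at 17.1 and 12.0 FPKM in control and 3.82 and 4.6 in reprogrammed libraries (−1.56 ± 0.34, limma adjusted p = 0.0445). The alpha2delta subunit gene stj, which is needed for calcium channels at synaptic terminals, stood at 14.8 and 11.8 FPKM against 2.68 and 3.79 (−1.76 ± 0.34, limma adjusted p = 0.0385). Per unit of cac, Ca-beta held 2.59 and 1.63 in control and 4.02 and 3.71 in reprogrammed libraries. The ratio stj to cac was 2.26 and 1.6 against 2.82 and 3.06. Both ratios were higher in the reprogrammed libraries, and the longest transcript of cac, 10902 bases, is longer than those of Ca-beta (5788) and stj (6057).

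Of the 6 Shaker-family genes and partners, 5 fell. Sh, the A-type channel that repolarizes axons and terminals, was the most abundant of them, at 24.5 and 19.5 FPKM in control and 5.43 and 6.69 in reprogrammed libraries (−1.70 ± 0.32, limma adjusted p = 0.0383). Shal, the A-type channel of cell bodies and dendrites, read 17.01 and 15.6 FPKM against 3.44 and 5.36. With controls close together, it changed by −1.70 ± 0.34 (limma adjusted p = 0.0394). The delayed rectifier gene Shab read 5.7 and 7.5 FPKM against 1.39 and 2.13, a change of −1.46 ± 0.35 just inside the threshold (limma adjusted p = 0.0497). Shaw, of the Kv3 type, read 10.9 and 9.44 FPKM against 2.18 and 3.12 (−1.62 ± 0.34, limma adjusted p = 0.0402).

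The Shaker partners were both lower, and qvr was called. The gene qvr, also called sleepless, encodes a membrane-anchored protein that modulates Shaker and affects sleep. It read 8.34 and 11.3 FPKM against 2.07 and 2.88 and fell by 1.63 on the log2 scale (SE 0.35, limma adjusted p = 0.0422). Hk, the Hyperkinetic beta subunit, stood at 4.35 and 3.48 FPKM against 1.73 and 2.0. Its change of −0.77 ± 0.32 was the smallest negative one of all 32, without a call (limma adjusted p = 0.15). The ratio of Hk to Sh was 0.178 in both controls and 0.319 and 0.299 in the reprogrammed libraries. The longest transcript of Sh, 12181 bases, is longer than that of Hk (8450).

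None of the 3 EAG-family genes was called in limma, with 2 of the 3, eag and Elk, at an unadjusted p under 0.05 (3358 of all 9851 tested genes). Both of these reached 1 FPKM in the controls alone, so passing the filter already required a difference. The gene eag, which founded the family, stood at 3.56 and 3.25 FPKM in control and 0.86 and 0.94 in reprogrammed libraries (−1.21 ± 0.30, limma adjusted p = 0.0535), and was called in 5 of 12 alternatives. Elk was as low, at 2.61 and 2.57 FPKM against 0.63 and 0.73 (limma adjusted p = 0.0616). The ERG-type gene sei, whose mutants are paralysed by heat, was the most abundant of the family, at 5.75 and 10.3 FPKM against 3.39 and 3.94. The controls of sei stood apart from each other, and its change was −0.91 ± 0.38 (limma adjusted p = 0.162). Of its exon bases 14.6% are shared with exons of gammaSnap1 and ppk29 on the other strand. The level of gammaSnap1 was 18.5 and 37.9 FPKM in control and 27.2 and 25.25 in reprogrammed libraries. The part of these shared bases in the values of sei was not tested.

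The potassium channel genes gated by ions inside the cell went in different directions. There was no call among the 3 in limma, with all 3 at an unadjusted p under 0.05 (3358 of all 9851 tested genes). SK, the small-conductance calcium-activated channel, read 19.9 and 13.3 FPKM in control and 5.46 and 6.60 in reprogrammed libraries (−1.30 ± 0.35, limma adjusted p = 0.0624), and was called in 4 of 13 alternatives. The large-conductance channel gene slo read 5.44 and 9.32 FPKM against 1.87 and 2.98 (−1.27 ± 0.40, limma adjusted p = 0.0847). SLO2, related to the sodium-activated channels of mammals, stood the other way, at 7.49 and 5.59 FPKM against 15.7 and 11.5. Both reprogrammed values lay above both controls, with a change of 0.95 ± 0.35 (limma adjusted p = 0.119). The ratio of SLO2 to slo was 1.38 and 0.60 in control and 8.40 and 3.84 in reprogrammed libraries. The gene SLO2 itself was called higher in 2 of 13 alternatives, 1 of them with the length trend removed (1.88, limma adjusted p = 0.0482). Its change was 1.13 without control replicate 1 and 0.76 without control replicate 2.

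KCNQ and Ih also went apart. KCNQ, whose channels carry a slow potassium current that damps firing, stood at 2.08 and 3.13 FPKM against 0.75 and 1.05 (−0.91, limma adjusted p = 0.113), with 27.4% of its exon bases shared with exons of CG18011 and of an antisense RNA. Ih, the hyperpolarization-activated cation channel gene, read 7.20 and 13.3 FPKM in the controls and 20.4 and 21.4 in the reprogrammed libraries. The controls differed more than the reprogrammed libraries did, and the change of 1.01 ± 0.37 did not pass (limma adjusted p = 0.122). It was called higher in 3 of 13 alternatives. These included removal of the length trend (2.0, limma adjusted p = 0.0493) and a common median (1.34, limma adjusted p = 0.0457). On a common sum the change of Ih was 0.76 (limma adjusted p = 0.25). It was 0.61 without control replicate 1 and 1.42 without control replicate 2.

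The sodium leak complex was the least abundant group. Its pore gene na, narrow abdomen, encodes the fly NALCN channel, which carries a resting sodium current and acts in circadian rhythms. It stood at 2.12 and 3.21 FPKM in control and 0.31 and 0.66 in reprogrammed libraries (−1.30 ± 0.33, limma adjusted p = 0.0573). The partner gene unc79 stood at 1.29 and 2.17 FPKM against 0.28 and 0.71 (limma adjusted p = 0.137), below na except in reprogrammed replicate 2. Both na and unc79 passed the filter through their controls alone. The second partner, unc80, was under the filter at 0.73 and 1.89 FPKM against 0.07 and 0.25, where the lowest value stands for at most about 8 reads.

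The inward rectifier genes were higher in both reprogrammed libraries, and Irk2 rose. Inward rectifiers pass potassium near the resting potential, and the fly genes are also known from the Malpighian tubule, where they serve potassium transport. Irk2 read 7.15 and 8.34 FPKM in control and 78.4 and 51.5 in reprogrammed libraries, which made it the most abundant of the 36 genes there. Its rise of 2.89 ± 0.33 (limma adjusted p = 0.0297), 8.39-fold by mean FPKM, was the only call for a higher channel gene. It held in 12 of 13 alternatives and was lost with no filter on low values (limma adjusted p = 0.0843), where no gene of the table was called. Irk3 stood at 4.72 and 15.5 FPKM against 30.6 and 31.0. The reprogrammed libraries nearly coincided while the controls stood far apart, and the change of 1.71 ± 0.53 did not pass (limma adjusted p = 0.0845). It was called in 4 of 13 alternatives, among them without either control library (0.95 and 2.48, adjusted p = 0.0251 and 0.02), fits whose spread comes from the reprogrammed pair alone, and on a common median (2.04, adjusted p = 0.0458). Irk1 stood at 9.15 and 9.61 FPKM against 13.9 and 14.6 (0.55 ± 0.30, limma adjusted p = 0.248). Of the exon bases of Irk1, 61.0% are shared with exons of CG46310, on the same strand, and of cnc, on the other strand. No strand-marking step is named for these libraries, so reads of Irk1 and either gene could not be told apart there. The level of cnc was 61.4 and 37.8 FPKM in control and 46.2 and 35.1 in reprogrammed libraries. Irk3 shares 10.8% of its exon bases with Grip71, on the other strand, which stood at 21.2 and 21.1 FPKM against 18.5 and 19.6. The part of these shared bases in the values of Irk1 and Irk3 was not tested.

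**Figure D2:**
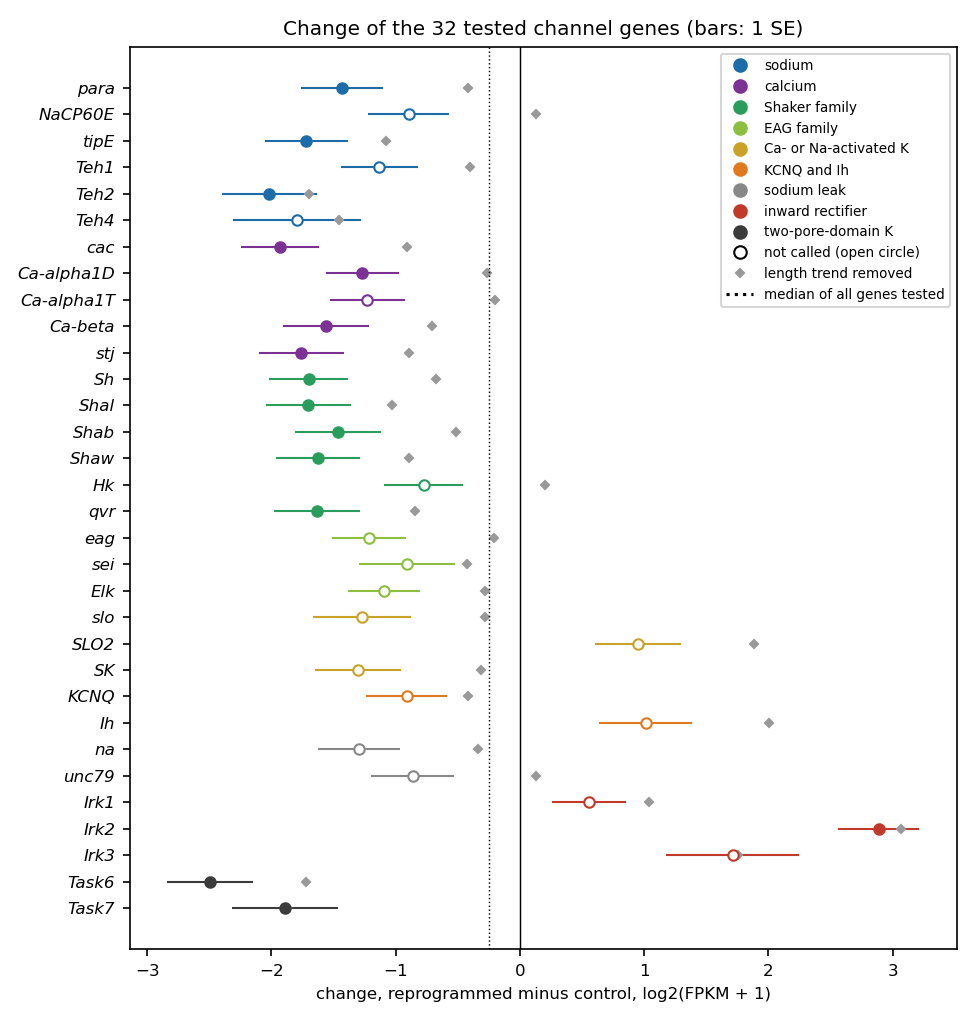
Change of the 32 tested channel genes, reprogrammed minus control on log2(FPKM + 1), with bars of 1 SE; filled circles were called, open circles were not, and grey diamonds are the changes with the length trend removed. Irk2 at 2.89 is the only filled circle right of 0, Task6 at −2.49 lies farthest left, and the diamonds of NaCP60E, Hk and unc79 lie right of 0.

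The tested K2P leak channel genes went opposite to the inward rectifiers. Both K2P and inward rectifier channels carry background potassium current. Task6, a relative of the acid-sensitive TASK channels of mammals, read 25.1 and 22.2 FPKM in control, a mean exceeded only by that of Teh2 among the 36 genes, and 2.64 and 4.24 in reprogrammed libraries. Its change of −2.49 ± 0.34 (limma adjusted p = 0.0324), 6.88-fold by mean FPKM, was the most negative of the 32 tested genes on the log2(FPKM + 1) scale. Task7 read 8.19 and 16.3 FPKM against 2.01 and 2.85 (−1.89 ± 0.43, limma adjusted p = 0.0461). The other K2P genes were under the filter: Ork1, the open rectifier gene, at 0.22 and 0.58 FPKM against 1.11 and 0.89, and sand, or sandman, a channel gene of sleep-control neurons, at 0.75 and 1.38 against 0.23 and 0.32. Ork1 was thus the one of these 4 K2P genes with higher reprogrammed values, at levels of at most about 55 reads.

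The make-up of channel transcripts shifted toward the inward rectifiers. Summed FPKM over the 36 genes was 285 and 320 in the controls and 217 and 208 in the reprogrammed libraries. Inward rectifiers held 7.37% and 10.4% of that sum in control and 56.5% and 46.6% in reprogrammed libraries, and Irk2 alone held 2.51% and 2.60% against 36.1% and 24.7%. Sodium channel genes held 19.6% and 23.0% against 6.21% and 9.05%, and Shaker-family genes 24.8% and 20.9% against 7.47% and 10.6%. The calcium channel share was 15.7% and 11.8% against 4.15% and 5.39%, and that of the K2P genes 12.0% and 12.6% against 2.76% and 3.98%. The 3 genes gated by calcium or sodium ions together held about the same share throughout, 11.5% and 8.82% in control and 10.6% and 10.1% in reprogrammed libraries. Singly they moved apart, SLO2 from 2.63% and 1.75% in control to 7.23% and 5.49% in reprogrammed libraries. SK went from 6.98% and 4.16% to 2.51% and 3.17%, and slo from 1.91% and 2.91% to 0.86% and 1.43%. These shares do not depend on scaling between libraries, but they can move with transcript length, and they are given as a description with no test.

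**Figure D3:**
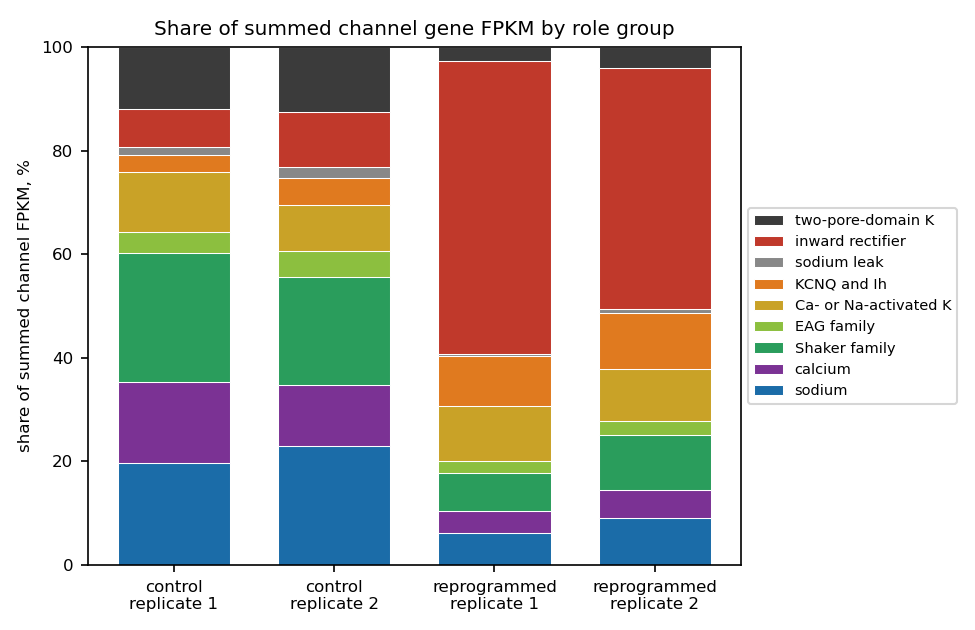
Share of the summed FPKM of the 36 channel genes held by each role group, in percent, in each of the 4 libraries. The red block of inward rectifiers covers 7.37% and 10.4% of the control bars and 56.5% and 46.6% of the reprogrammed bars.

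The order of levels changed accordingly. In the controls Teh2 (mean 31.3 FPKM), Task6 (23.7), Sh (22.01), SK (16.6) and Shal (16.3) were the most abundant. The SDs of Task6 and Sh (2.09 and 3.52, n = 2) and of SK and Shal (4.66 and 0.99) exceed the differences between these neighbours. In the reprogrammed libraries Irk2 (mean 65.0 FPKM), Irk3 (30.8), Ih (20.9), Irk1 (14.3) and SLO2 (13.6) led, and Irk1 and SLO2 differed by less than the SD of SLO2 (3.01). In those libraries 27 of the 36 genes stayed under 5 FPKM, against 12 in the controls.

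Channel transcripts are long, and over the whole table genes with long transcripts tended to be lower in the reprogrammed group. The longest annotated transcript had a median of 5562 bases over the 36 genes, from 1586 (Teh3) to 15578 (para), against a median of 1958 over the tested genes. In the longest eighth of all tested genes the median change was −0.96 and 23.9% were called lower. That eighth held 20 of the 32 tested channel genes, 9 of them called lower, with a median of −1.28. Over the 32 genes, 24 changed more negatively than the median of their own length eighth. The 8 tested channel genes in the shorter 6 eighths went both ways: Teh2, Teh4, sei, KCNQ and Task7 were lower and the 3 inward rectifiers higher. Task7 with 1727 bases and Irk3 with 1820 are alike in length and changed by −1.89 and 1.71, while their eighth had a median of −0.04. Ih (8900 bases) and SLO2 (7234) lie in the longest eighth and had positive changes. The correlation of change with log10 length was −0.24 over the 32 channel genes and −0.34 over all tested genes, given as a description across genes of the same libraries. What this trend with length reflects was not tested.

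**Figure D4:**
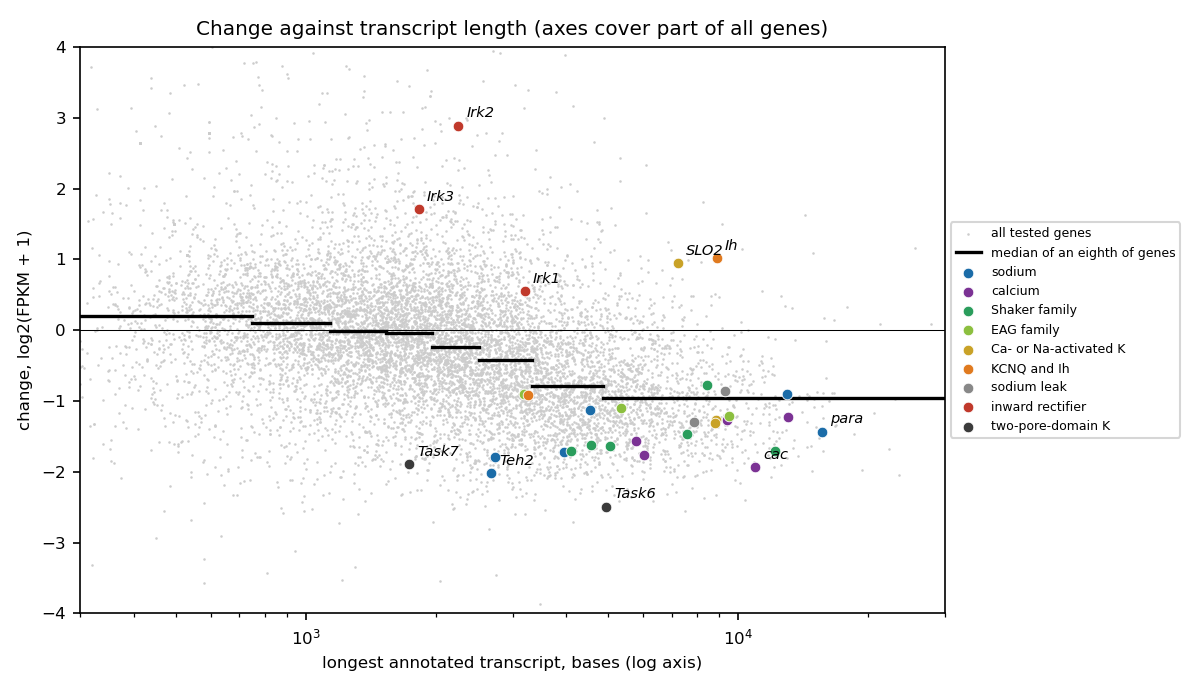
Change on log2(FPKM + 1) against the longest annotated transcript in bases (log axis); grey points are all tested genes within the axes, black lines the median of each eighth of genes by length, and coloured points the channel genes. The black lines descend from 0.20 to −0.96, with Irk2, Irk3, Ih and SLO2 above them and Task7, Teh2 and Task6 below.

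Neuron markers moved in the direction of most channel genes and glia markers in that of the inward rectifiers. Of 15 neuron markers, 11 fell and none rose (median −1.68), and their summed level was 1193 to 1435 FPKM in control and 342 to 453 in reprogrammed libraries. The synaptic vesicle gene nSyb fell by 2.53 on the log2 scale, and elav, a general neuronal marker, by 1.80. Of 14 glia markers, 8 rose and none fell (median 1.64), with sums of 891 to 1192 and 3353 to 3575 FPKM. Neural stem cell markers had 8 of 11 lower (median −2.11; sums 396 to 540 and 108 to 128 FPKM). Most of each of these sums was brat, at 398 and 213 FPKM in control and 69.4 and 83.0 in reprogrammed libraries. With the length trend removed 1 neuron marker and 4 stem cell markers were called lower and 8 glia markers higher. In these bulk libraries fewer cells of a type and less RNA per cell cannot be told apart, and the part of cell make-up in the channel differences was not tested.

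Markers of tissue that can stay attached to the nervous system varied between libraries of the same group. Of 12 tested muscle markers of 13, none was called in limma (1 at an unadjusted p under 0.05; median −1.14), with sums of 395 and 1010 FPKM in the controls and 247 and 468 in the reprogrammed libraries. Fat body markers summed to 230.0 and 1393 against 66.9 and 511 FPKM, with Fbp1 lower and the other 6 not called. No muscle or fat body marker was at 0 in any library. Of 9 blood cell markers srp fell, with sums of 412 to 786 and 402 to 603 FPKM, and of 8 trachea and cuticle markers 4 fell (sums 276 to 412 and 87.1 to 105). The channel genes Sh, Shab, slo and Ca-alpha1D also act in fly muscle, and the part of attached tissue in their values was not tested.

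Channel and transport genes outside the 36 gave a mixed picture. All 3 tested of 6 other K2P genes fell, with CG1688 from 2.59 ± 0.74 to 0.35 ± 0.12 FPKM (SD, n = 2) and CG42340 from 4.48 ± 0.16 to 1.11 ± 0.09. CG1688 and the further called gene of this list reached 1 FPKM in the controls alone, so passing the filter already required a difference. With the length trend removed 0 of the 3 were called lower in limma. Of 8 tested genes for calcium channel auxiliary subunits, calcium stores and cyclic-nucleotide-gated channels, Cngl fell (−1.34) and 7 did not pass (median −1.18). No chloride channel gene of 7 tested was called in limma (2 at an unadjusted p under 0.05; median 0.31), and none of 5 pickpocket genes (0 at an unadjusted p under 0.05; median −0.51). Among 8 tested TRP, mechanosensitive and proton channel genes, pyx, the heat-activated TRP channel gene pyrexia, rose from 6.07 ± 2.02 to 105 ± 40.1 FPKM (3.88 ± 0.40, limma adjusted p = 0.0264). The proton channel gene OtopLa fell from 114 ± 24.5 to 31.2 ± 8.14 FPKM, and 6 did not pass.

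Regulators and pumps were also divided. Of 8 channel regulator genes Slob, which encodes a Slowpoke-binding protein, and Ank2, an ankyrin of axons and terminals, fell (−1.41 and −2.08) and 6 did not pass. Of 14 pump and transporter genes, those of the sodium pump beta subunits nrv1 and nrv2 rose. The level of nrv1 went from 37.8 ± 4.19 to 217 ± 83.4 FPKM (2.44 ± 0.35, limma adjusted p = 0.0324), and that of nrv2, which also stands among the glia markers, from 381 ± 15.7 to 1630 ± 188. The sodium-calcium exchanger gene Nckx30C fell (−1.56), named after its value was seen, and 11 did not pass.

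**Figure D5:**
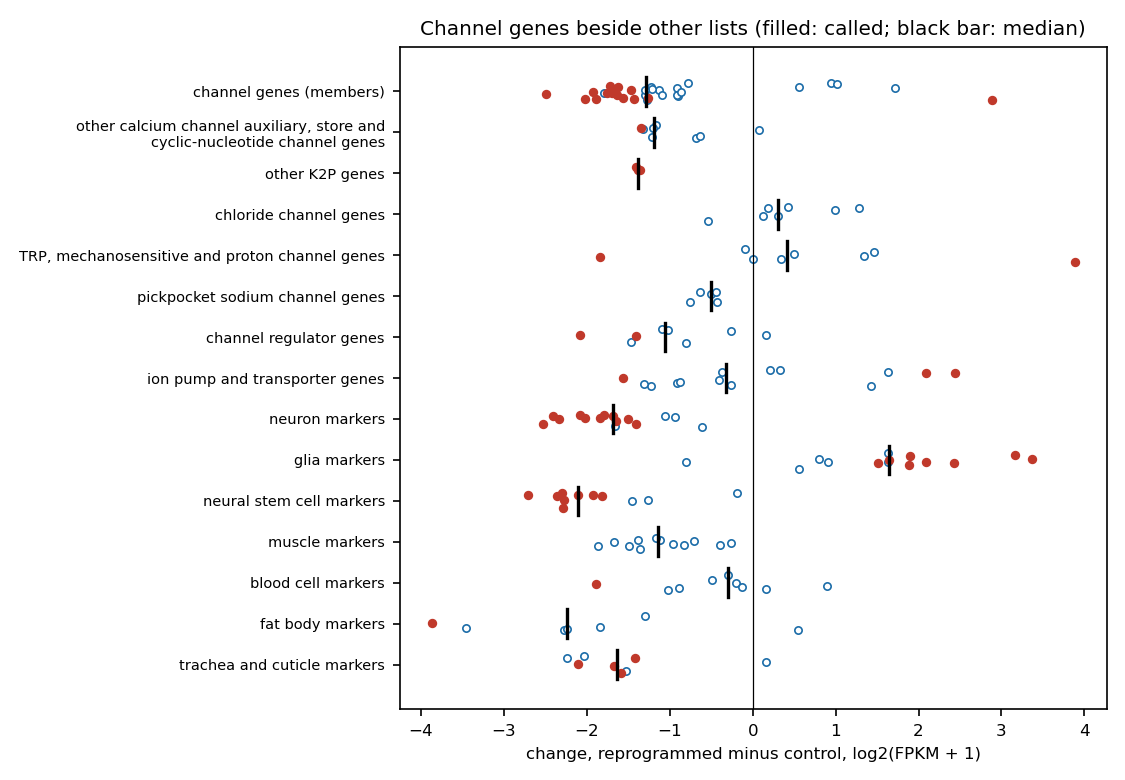
Change of every tested gene in the channel list and in each comparison list, reprogrammed minus control on log2(FPKM + 1); red filled circles were called, open circles were not, and black bars are list medians. The channel list has a median of −1.28, with Irk2 standing apart at 2.89. The medians are −1.68 for neuron, −1.14 for muscle, −1.63 for trachea and cuticle and 1.64 for glia markers.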

How the data were processed

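Central nervous systems were pooled, and poly(A) RNA, captured on oligo(dT) beads, was copied from random primers, per the labels' protocols. The authors deposited 1 table of FPKM values per sample, rounded to 2 decimals, with NCBI gene numbers and RefSeq transcripts, per the file headers. The submitters' processing notes name HISAT and Bowtie2. No source used here gives their versions, the quantifier or the genome build, and coordinates are therefore left out. FPKM is relative to the mapped total and to transcript length, so abundant genes or a difference in RNA integrity can shift it.

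Symbols came from a RefSeq gene table (Release 6 plus ISO1 MT), which named 13960 of 13997 gene numbers and all 36 channel genes. Transcript lengths (the longest per gene, found for 9838 of 9851 tested genes) and exon overlaps came from Ensembl BDGP6. The worth of 1 read was taken from low values of single-transcript genes between 600 and 1500 bases, with 50 bases taken off the length. At a tolerance of 0.15 reads 95.9% to 97.7% of these values were whole, against 30.0% by chance. Read numbers given for a gene use its longest transcript and are upper estimates.

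Groups came from the sample titles. Tested genes had at least 1 FPKM in at least 2 libraries. The fit was limma (lmFit, eBayes with a mean-variance trend, 2 residual and 3.72 prior degrees of freedom) on log2(FPKM + 1), group as the only term, adjusted by Benjamini-Hochberg over all tested genes. The channel genes, gene lists, tests and alternatives were chosen with earlier results of these data known. The naming rule covered called members and, per role group, the uncalled members of highest level and of largest change. The remaining members, and the ratios between partner genes, were given after their values were seen. Of other lists at most 2 called genes were named, except Nckx30C, a further called gene of its list, named after its value was seen. Of the 8 names written for other K2P genes, 2 were synonyms of sand and Task7 and were left out. Alternatives were 3 scalings, a filter of 5 FPKM or none, a smaller pseudocount (0.1), removal of the length trend (loess, span 0.5), the replicate number as a block, no variance trend, and each library left out. The software was limma 3.58.1 in R 4.3.3, with Python 3.11.15, pandas 2.3.3, numpy 2.4.6 and matplotlib 3.10.9.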

Additional observations from a re-analysis of the deposited data

How the results depend on the processing

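In the alternatives run for each, 13 or, for genes that a filter of 5 FPKM removed, 12, the 32 tested channel genes kept the sign of their change, except that NaCP60E (0.13), Hk (0.20) and unc79 (0.13) turned positive with the length trend removed; genes called for large changes keep their sign nearly by construction. Of all genes 801 were lower and 405 higher. The numbers called lower and higher in limma, first of the channel genes and then of all genes, were 7 and 3, then 439 and 586, on a common median, 19 and 1, then 1225 and 310, on a common sum, and 3 and 1, then 249 and 369, after quantile normalization. With no filter they were 0 and 0, then 0 and 0 (26 and 4, then 2421 and 1208, at an unadjusted p under 0.05), and with the length trend removed 0 and 3, then 91 and 252. The median change of the channel genes was −0.91 after quantile normalization, −1.47 on a common sum, −1.81 with a pseudocount of 0.1, −1.05 on a common median, −1.56 over the 21 channel genes left by a filter of 5 FPKM and −0.41 with the length trend removed. With 1 library left out it ranged from −1.44 to −1.20, the channel genes called lower from 0 to 25 and higher from 1 to 3, and all genes called lower from 75 to 3313 and higher from 181 to 1265. Irk2 kept its call in each of these fits. Without reprogrammed replicate 1, 0 channel genes were lower (6 at an unadjusted p under 0.05) and without reprogrammed replicate 2 there were 2, Teh2 and Task6; without control replicate 1 there were 25 and without control replicate 2 there were 18. With a library left out the spread came from the other group's pair alone, and the log2 difference between controls had an SD of 0.88 against 0.59 between reprogrammed libraries. Nothing in the labels says that the replicate numbers pair the samples, and deviations of same-numbered samples correlated at −0.04 across genes; with the replicate block 22 channel genes were lower and 2 higher, Irk2 and Irk3 (1.71, adjusted p = 0.00081), and 1907 and 872 of all genes. Among low channel genes, unc80, Teh3, Ork1 and sand rest on at most 8, 0, 11 and 5 reads in their lowest library. The causes of these shifts were not tested.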
